A study of Mus musculus with 3 samples.

Results

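The desmosomal plaque and classical cadherin genes examined here were Dsp, Jup, Pkp1, Pkp2, Pkp3, Pkp4, Perp, Cdh1, Cdh3 and Ctnnb1. They were selected by symbol, as all probe sets of the array annotated with exactly 1 gene symbol from this set of 10 names. All 10 genes were on the array, with 20 probe sets, out of 18193 genes and 34945 probe sets with 1 symbol. No probe set annotated with several symbols named any of them.

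Primary epidermal keratinocytes from skin of neonatal ICR mice were compared between RASSF9-/- animals, with 2 arrays, each from another mouse, and WT animals, with a single array from 1 mouse. The RASSF9-/- line arose by insertion of an Epstein-Barr virus LMP1 transgene that removed an intron segment of Rassf9, so RASSF9-/- cells also carry the transgene and descend from 1 founder line, and WT cells carry neither change. Cells were grown in low-calcium serum-free medium, which keeps keratinocytes from assembling mature junctions. The methods give the same culture time for all samples, whereas the deposited descriptions give 48 h for the RASSF9-/- samples and 24 h for WT. Under the deposited times, genotype and time in culture cannot be told apart. The deposited array names carry the same stamp for RASSF9-/- array 1 and WT and another for RASSF9-/- array 2.

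Desmosomes are spot-like junctions that tie the keratin filaments of neighbouring epidermal cells together. Their cadherins, the desmogleins and desmocollins, bind across the gap, the armadillo proteins plakoglobin and plakophilin gather on the cadherin tails, and desmoplakin joins this plaque to keratin. Adherens junctions are built in the same way from the classical cadherins E-cadherin and P-cadherin, whose tails hold beta-catenin or plakoglobin and through alpha-catenin the actin cytoskeleton. In skin both kinds of junction hold the layers together, and defects of several plaque proteins cause fragile or blistering skin.

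Values are MAS5 signals, in which the brightness of the short probes of a probe set is summarised on a linear scale, and a difference is given as log2 of the RASSF9-/- signal over the WT signal. As an array of bulk RNA was measured, fewer cells of a type and less RNA per cell cannot be told apart. Across the 3 arrays, medians of all probe sets were 81.7 to 99, and the 27 probe sets for Bacillus subtilis, which match no mouse transcript, reached 78.4. Signals under 78.4 are called background here. Rassf9 itself had signals of 59.6 and 120 in RASSF9-/- cells, against 478 in WT cells, on its brighter probe set, and 68.2 and 76.7, against 340, on the other, so the disrupted gene was lowest in the samples labelled RASSF9-/-. Where its probes lie relative to the removed segment was not analysed here. Of 6 keratinocyte markers, 5 were above background on every array and Krt15 was in the background on all of them. All 6 melanocyte markers were above background on every array. Of 4 endothelial markers, 2 and 1 were above background in RASSF9-/- cells and 1 in WT cells, and of 5 leukocyte markers likewise 2 and 1, against 1. Kdr and Cd68 were above it on every array and Tek and Cd3e, both at 82.3, on RASSF9-/- array 1 only, while Pecam1, Cdh5 and Ptprc were in the background on all arrays.

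Promoter sequences are shown only for Dsp, Jup and Ctnnb1. Dsp and Jup lay under WT on both RASSF9-/- arrays on their brightest probe sets. Ctnnb1 encodes the close relative of plakoglobin, and its probe sets disagreed. The Pkp4 probe sets also disagreed, but its promoters are not shown. The RefSeq promoter table of build GRCm38.p6 had entries for 4 of the 10 genes, Dsp, Jup, Pkp4 and Ctnnb1, with 6 start sites in all. Each sequence is the 250 bases before the annotated start, 5′ to 3′ along the gene. Capitals mark the GC box (GGGCGG) and the CCAAT box (CCAAT), searched on both strands together with the TATA box (TATAAA) and the E-box (CAGGTG). The windows lie at chr13:38151044-38151293 on the plus strand for Dsp, at chr11:100397791-100398040 on the minus strand for Jup and at chr9:120933150-120933399 on the plus strand for Ctnnb1.
Dsp: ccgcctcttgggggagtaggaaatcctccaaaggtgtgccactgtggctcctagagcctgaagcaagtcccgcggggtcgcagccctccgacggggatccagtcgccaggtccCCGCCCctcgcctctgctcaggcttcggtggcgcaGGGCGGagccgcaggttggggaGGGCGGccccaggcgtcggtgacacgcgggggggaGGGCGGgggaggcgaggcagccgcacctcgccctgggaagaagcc
Jup: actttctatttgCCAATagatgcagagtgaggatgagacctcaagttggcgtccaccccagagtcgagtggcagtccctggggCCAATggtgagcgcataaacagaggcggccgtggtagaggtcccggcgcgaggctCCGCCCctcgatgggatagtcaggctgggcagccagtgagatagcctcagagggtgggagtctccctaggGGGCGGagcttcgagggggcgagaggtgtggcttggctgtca
Ctnnb1: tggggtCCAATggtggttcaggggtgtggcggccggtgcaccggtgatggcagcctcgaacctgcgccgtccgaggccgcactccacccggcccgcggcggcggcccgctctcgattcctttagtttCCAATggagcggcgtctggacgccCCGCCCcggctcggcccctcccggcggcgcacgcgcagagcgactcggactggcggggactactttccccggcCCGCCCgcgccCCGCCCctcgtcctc

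The Dsp window held 4 GC boxes and no CCAAT box. In the Jup window there were 2 GC boxes and 2 CCAAT boxes, and the Ctnnb1 window had 3 GC boxes and 2 CCAAT boxes. Neither TATAAA nor CAGGTG occurred in these 3 windows. The window of the other Ctnnb1 start, not shown, held 1 TATA box, 2 GC boxes and no CCAAT box. Of the Pkp4 windows, also not shown, that at chr2:59160600-59160849 held 5 GC boxes and 3 CCAAT boxes. The other, at chr2:59161619-59161868, held 1 E-box and no GC or CCAAT box. Over all 32851 promoter windows of this length, 32.7% held a GC box, 33.8% a CCAAT box, 12.4% a TATA box and 17.2% this E-box. CpG pairs numbered 22 for Dsp, 13 for Jup and 35 for Ctnnb1, against a median of 6 over all windows. These matches describe the letters of the windows and no binding was measured.

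On the brightest probe set of each gene, the WT signal was above both RASSF9-/- signals for Dsp, Jup, Pkp1 and Perp. No gene was higher in both RASSF9-/- samples. Other probe sets of Dsp, Pkp2, Pkp4 and Ctnnb1 differed from the brightest, as given below. By log2 fold change on these probe sets, Jup was furthest from WT. Pkp2 (0.09), Pkp4 (0.04), Cdh1 (-0.08), Cdh3 (-0.06) and Ctnnb1 (-0.06) were close to 0, each with the RASSF9-/- arrays on either side of WT. The median departure was larger on RASSF9-/- array 1 than on RASSF9-/- array 2. None of these differences passed the test across all genes, so they are given as measured values and not as changes.

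**Figure D1:**
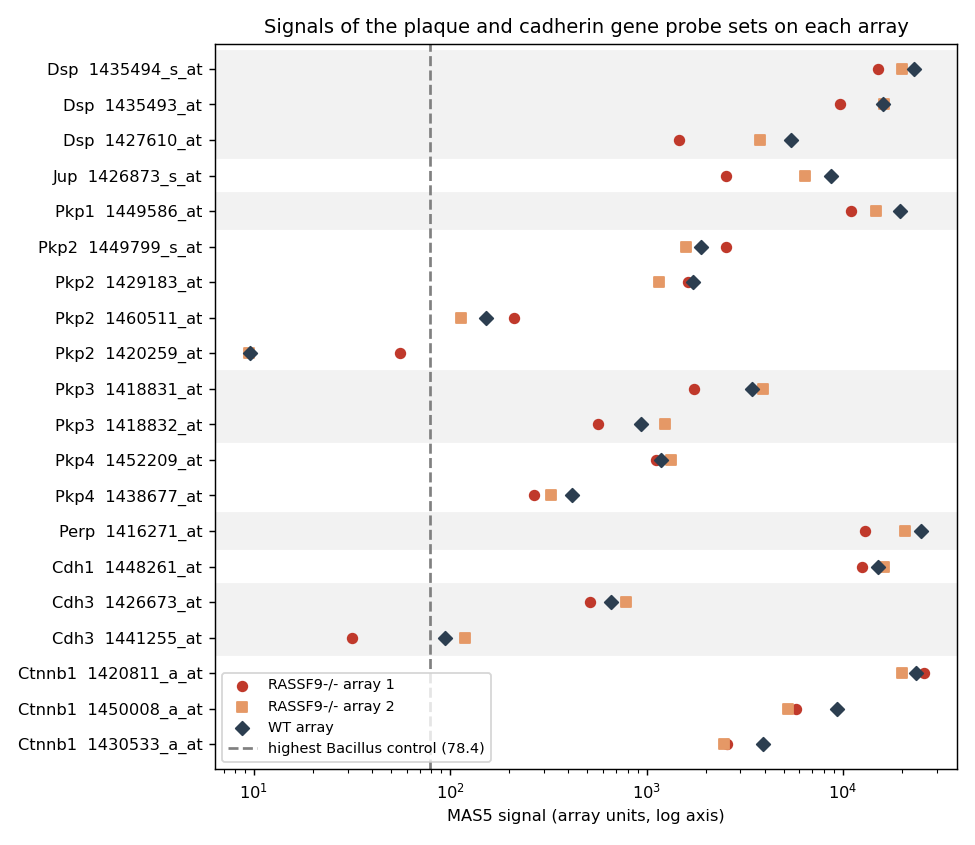
MAS5 signal in array units (log axis) of the 20 probe sets, with 1 marker for each of the 2 RASSF9-/- arrays and the WT array, and with the top Bacillus control (78.4) as a dashed line. The WT marker lies furthest right on 9 probe sets, those of Jup, Pkp1 and Perp, 2 of Dsp, 2 of Ctnnb1 and 1 each of Pkp2 and Pkp4, and Pkp2 1420259_at lies wholly left of the dashed line.

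Desmoplakin, encoded by Dsp, anchors keratin filaments to the plaque and was measured by 3 probe sets. The brightest, 1435494_s_at, had signals of 15116 and 20117 in RASSF9-/- cells, against 22932 in WT cells. The second, 1435493_at, which the annotation derives from the same source sequence, had 9694 and 16165 in RASSF9-/- cells, against 16070 in WT cells. The third, 1427610_at, had 1463 and 3770 in RASSF9-/- cells, against 5457 in WT cells. RASSF9-/- array 1 was the lowest of the arrays on every Dsp probe set, while RASSF9-/- array 2 was under WT on the first and the third and level with WT on the second. The size of the difference depended on the probe set, with RASSF9-/- array 1 at 65.9%, 60.3% and 26.8% of WT in the same order.

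Plakoglobin, encoded by Jup, is the plaque protein that desmosomes and adherens junctions share. Its only probe set, 1426873_s_at, had signals of 2540 and 6403 in RASSF9-/- cells, against 8697 in WT cells. Which transcripts this probe set reads was not analysed here, nor for the brightest Dsp and Pkp2 probe sets, which carry the same suffix. RASSF9-/- array 1 was at 29.2% and RASSF9-/- array 2 at 73.6% of WT. The log2 fold change of -1.11 (standard error 0.56) was smaller than the gap of 1.33 between the RASSF9-/- arrays. Log2 fold changes as low as that of Jup, or lower, were held by 430 (3.88%) of the 11089 genes tested.

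The plakophilins are armadillo proteins that cluster desmosomal cadherins and recruit desmoplakin. Plakophilin 1, which is most abundant in the suprabasal layers of the epidermis, had signals of 10997 and 14702 in RASSF9-/- cells, against 19578 in WT cells, on its only probe set. Both RASSF9-/- arrays lay under WT, and the log2 fold change of -0.62 (standard error 0.34) was larger than the gap of 0.42 between them. Plakophilin 3, which is present throughout the living epidermal layers, had 1736 and 3909 in RASSF9-/- cells, against 3459 in WT cells, on its brighter probe set. Its other probe set gave the same order, with 565 and 1248 in RASSF9-/- cells, against 942 in WT cells. For Pkp3 the RASSF9-/- arrays therefore lay on either side of WT, RASSF9-/- array 1 below and RASSF9-/- array 2 above, on both probe sets.

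Plakophilin 2, the plakophilin of simple epithelia and heart, ran the other way between the RASSF9-/- arrays. Its brightest probe set, 1449799_s_at, had signals of 2532 and 1592 in RASSF9-/- cells, against 1885 in WT cells. On 1429183_at they were 1622 and 1160 in RASSF9-/- cells, against 1717 in WT cells, and on the dim 1460511_at 211 and 114 in RASSF9-/- cells, against 151 in WT cells. RASSF9-/- array 2 was the lowest of the arrays on all of these, and RASSF9-/- array 1 was above WT on the first and the third. The remaining probe set, 1420259_at, was in the background on every array, with 55.7 and 9.4 in RASSF9-/- cells and 9.5 in WT cells, and no fold is given for it.

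Plakophilin 4, also called p0071, is a relative of p120-catenin found at adherens junctions and desmosomes. The brighter probe set had signals of 1114 and 1325 in RASSF9-/- cells, against 1182 in WT cells. The dimmer had 267 and 327 in RASSF9-/- cells, against 417 in WT cells. The probe sets disagreed, since the RASSF9-/- arrays spanned WT on the brighter and were both under WT on the dimmer.

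Perp is a membrane protein of desmosomes and a known target of p53 and, in mouse epidermis, of p63. Its only probe set had signals of 13007 and 20724 in RASSF9-/- cells, against 25071 in WT cells. Both RASSF9-/- arrays were under WT, at 51.9% and 82.7% of it, and the log2 fold change was -0.61 (standard error 0.38). The gap between the RASSF9-/- arrays, 0.67, was of the same size.

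**Figure D2:**
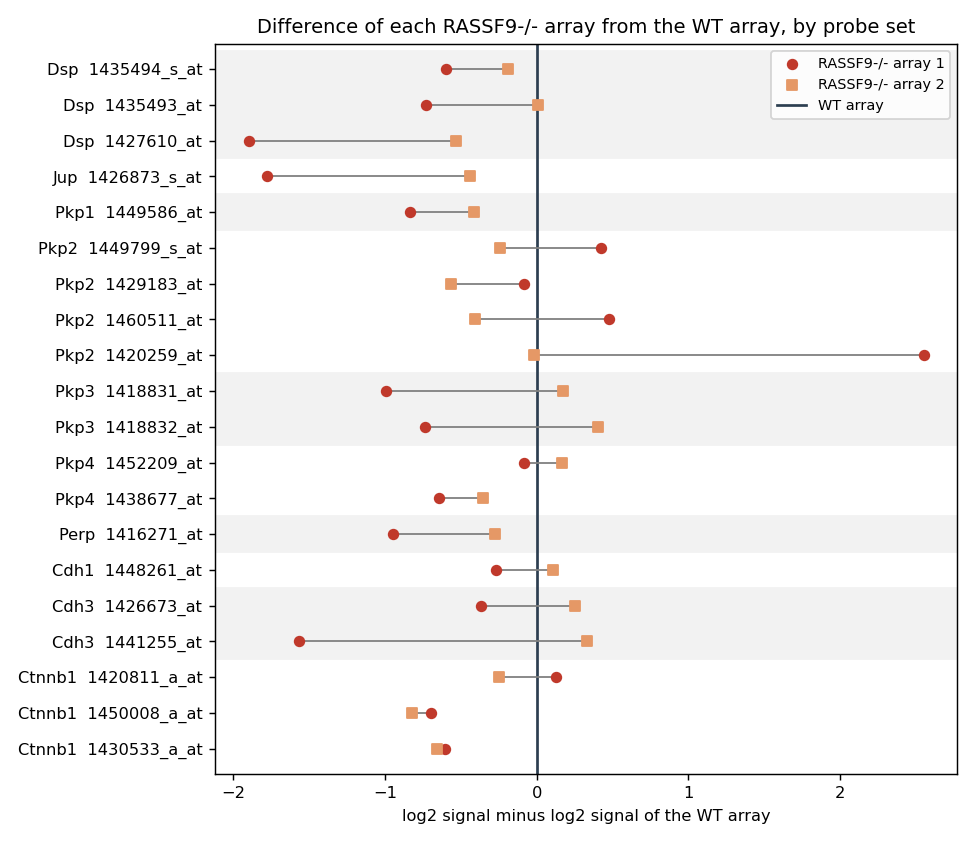
Difference of each RASSF9-/- array from the WT array, in log2 units, for the 20 probe sets, with a grey line joining the RASSF9-/- arrays and the WT array at 0. Both markers lie left of 0 for 9 probe sets and on either side of it for 11, and the joined markers are close together for Ctnnb1 1450008_a_at (-0.69 and -0.83) and Ctnnb1 1430533_a_at (-0.60 and -0.66).

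E-cadherin, encoded by Cdh1, is the main classical cadherin of the epidermis. Its only probe set had signals of 12566 and 16270 in RASSF9-/- cells, against 15120 in WT cells. The RASSF9-/- arrays lay on either side of WT, and the log2 fold change was -0.08 (standard error 0.33), with a 95% interval of -0.88 to 0.71 from limma. P-cadherin, encoded by Cdh3, is enriched in the basal layer and hair follicle. Its brighter probe set had 512 and 786 in RASSF9-/- cells, against 660 in WT cells, again on either side of WT. The log2 fold change was -0.06 (standard error 0.47), with an interval of -1.20 to 1.08, so a change of 2-fold in either direction lies within it. The dimmer Cdh3 probe set had 31.6 and 118 in RASSF9-/- cells, against 93.8 in WT cells, with RASSF9-/- array 1 in the background.

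Beta-catenin, encoded by Ctnnb1, binds the tails of classical cadherins and also carries the Wnt signal to the nucleus. The brightest of its 3 probe sets, 1420811_a_at, had signals of 25813 and 19902 in RASSF9-/- cells, against 23669 in WT cells. On 1450008_a_at, which the annotation derives from the same transcript, they were 5776 and 5272 in RASSF9-/- cells, against 9343 in WT cells. On 1430533_a_at they were 2581 and 2490 in RASSF9-/- cells, against 3925 in WT cells. The first probe set had RASSF9-/- arrays on either side of WT, whereas the other pair had both well under WT and close to each other. In the fit over all probe sets, the log2 fold changes were -0.06 (standard error 0.41) for the first, -0.76 (standard error 0.35) for the second and -0.63 (standard error 0.33) for the third. For the second and the third, the gaps between the RASSF9-/- arrays were 0.13 and 0.05. These probe sets carry a suffix that marks probes shared by alternative transcripts of a gene, and which transcripts each one reads was not analysed here.

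The test was limma with an intensity trend on log2 signals, with the brightest probe set for each gene, over 11089 genes. All 10 plaque and cadherin genes passed the filter on dim signals, as did 18 of their 20 probe sets. The spread could come only from the RASSF9-/- pair, because WT had a single array. For each gene limma drew it mostly from all genes of similar signal, and standard errors for these genes were 0.33 to 0.56. None of the 10 genes was called at an adjusted p under 0.05 from limma, where 0.0812% of all genes were called. The smallest adjusted p was that of Jup (adjusted p = 0.988), and at an unadjusted p under 0.05 limma called 0 of the 10, where 5.55% of all genes passed, and the methods' t-test 0 of the 10, where 4.45% passed. In the fit over all 45037 probe sets, 0 of the 20 probe sets were called, where 0.0244% of all probe sets were called by limma, and 0 passed an unadjusted p under 0.05, where 4.64% of all probe sets did.

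**Figure D3:**
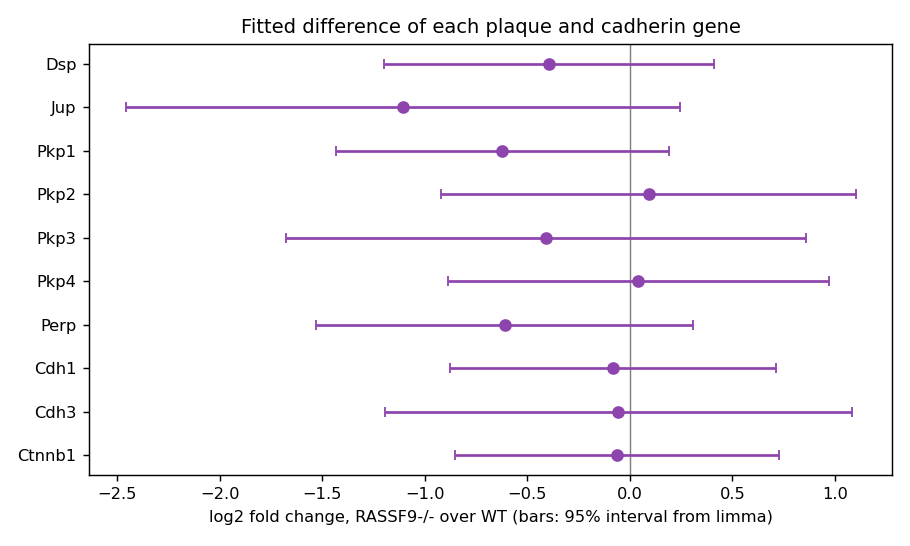
Log2 fold change of RASSF9-/- over WT for each of the 10 genes, from the brightest probe set, with bars for the 95% interval from limma. Every interval crosses 0, and Jup at -1.11 lies furthest to the left.

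Counted without a test, 4 of the 10 genes were lower on both RASSF9-/- arrays, where 32.7% of all genes were. With arrays scaled to the spike-in controls it was 9 of the 10, where 58.7% of all genes were. In the deposited scaling none was higher on both, where 33.6% of all genes were. At least 2-fold on both arrays, 0 of the 10 were lower and 0 higher, where 2.24% and 2.89% of all genes were. Both differences share the WT array. RASSF9-/- array 1 was under WT for 8 of the 10, where 46.1% of all genes were, and RASSF9-/- array 2 for 6, where 53% were. At least 2-fold under WT were 1 of the 10 on RASSF9-/- array 1, where 5.19% of all genes were, and 0 on RASSF9-/- array 2, where 8.91% were. The median log2 fold change was -0.24 for the 10 genes and -0.01 for all genes tested, or -0.41 and -0.02 with the mean over all probe sets of a gene. That mean includes probe sets that failed the filter, such as Pkp2 1420259_at and the dimmer one of Cdh3. It moved Cdh3 from -0.06 to -0.34. With the brightest probe sets, the single-array medians were -0.48 against 0.05 on RASSF9-/- array 1 and -0.22 against -0.04 on RASSF9-/- array 2. Among the 6827 brighter genes, those past a filter at the 75th percentile, these medians were 0.02 and -0.01.

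On the brightest probe sets, the order of the arrays divided the genes into 3 groups. Dsp, Jup, Pkp1 and Perp were lowest on RASSF9-/- array 1, then RASSF9-/- array 2, and highest on WT, an order held by 13.1% of all genes. Pkp3, Pkp4, Cdh1 and Cdh3 were lowest on RASSF9-/- array 1 and highest on RASSF9-/- array 2 with WT between them, an order held by 13.4% of all genes. Pkp2 and Ctnnb1 were lowest on RASSF9-/- array 2 and highest on RASSF9-/- array 1, as were 20.2% of all genes. RASSF9-/- array 1 was thus under RASSF9-/- array 2 for 8 of the 10 genes, where 45.1% of all genes were. RASSF9-/- array 2 minus RASSF9-/- array 1 had a median of 0.42 for the 10 genes and -0.07 for all genes. Some dimmer probe sets held another order. Dsp 1435493_at had that of Pkp3, and Pkp4 1438677_at had that of Dsp and Jup. Pkp2 1429183_at, Ctnnb1 1450008_a_at and Ctnnb1 1430533_a_at were lowest on RASSF9-/- array 2 and highest on WT. Of all genes, 19.7% held that order on their brightest probe sets.

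**Figure D4:**
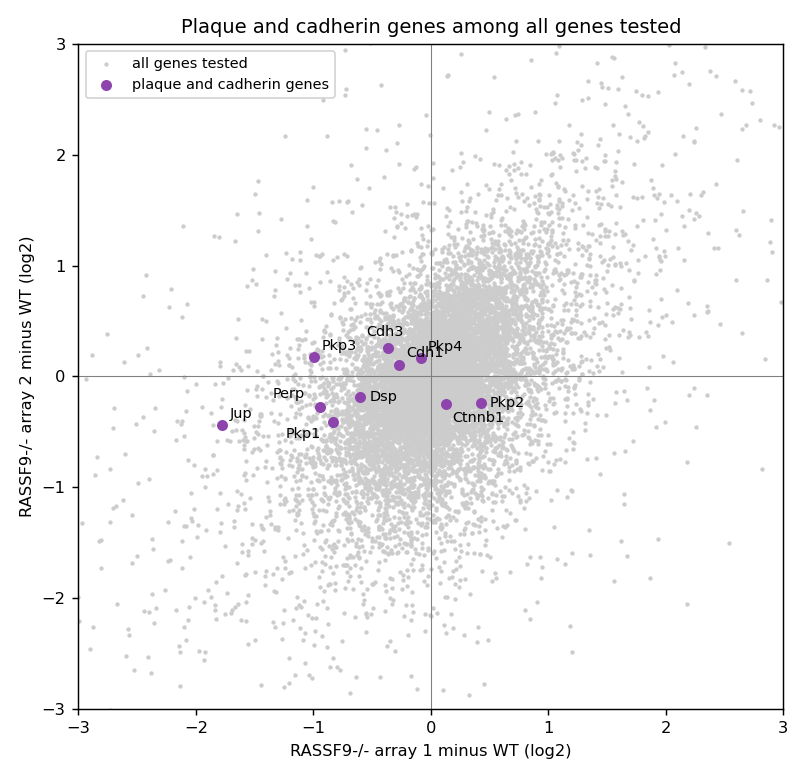
Difference of RASSF9-/- array 1 from WT (x axis) against that of RASSF9-/- array 2 from WT (y axis), both in log2 units, with all genes tested in grey, the 10 genes in purple and 142 genes beyond the axes at 3. The 10 genes spread along the x axis from Jup at -1.78 to Pkp2 at 0.43 and stay between -0.44 and 0.25 on the y axis.

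Several other measures differed between the RASSF9-/- arrays. The hybridization spike-in controls, bacterial and phage sequences added to every sample in fixed amounts, averaged 1.35 times WT on RASSF9-/- array 1 and 1.15 times WT on RASSF9-/- array 2. Summed signals of 6 melanocyte markers were 24141 and 33895 in RASSF9-/- cells, against 28210 in WT cells. That is the order of Pkp3, Pkp4, Cdh1 and Cdh3 on their brightest probe sets. Of the 6 markers, 3 (Tyrp1, Dct and Mlana) held it, while Tyr and Sox10 were above WT on both RASSF9-/- arrays and Pmel under WT on both. The 6 keratinocyte markers summed to 75728 and 84775 in RASSF9-/- cells, against 85665 in WT cells, mostly from Krt14 and Krt5. Krt14 was slightly above WT on both RASSF9-/- arrays, Krt5 and Itgb4 were under it on both and Itga6 lay on either side. Trp63 was far under WT on both, with 1460 and 1543 in RASSF9-/- cells, against 3239 in WT cells. Fibroblast markers summed to 1035 and 811 in RASSF9-/- cells, against 1320 in WT cells, with 6, 4 and 5 of 6 above background in that order. Col1a1, Col1a2 and Pdgfra were under WT on both RASSF9-/- arrays, while Col3a1 and Dcn lay on either side of it. Lum was above WT on both, but in the background on WT and RASSF9-/- array 2. Muscle markers summed to 2710 and 3597 in RASSF9-/- cells, against 1054 in WT cells, mostly from Acta1. Leukocyte markers summed to 567 and 511 in RASSF9-/- cells, against 506 in WT cells, and endothelial markers to 276 and 330, against 255. These sums, like those of fibroblast and muscle markers, include signals in the background. Cd68, the leukocyte marker above background on every array, had 351 and 407 in RASSF9-/- cells, against 395 in WT cells. It did not follow the order of the leukocyte sum. Ratios of 3′ over 5′ signal, a reading of RNA integrity from control probe sets, were 0.939 and 0.832 in RASSF9-/- cells, against 0.841 in WT cells, for Gapdh, and 1.41 and 1.37, against 1.43, for beta-actin. The part of these measures in the plaque and cadherin values was not tested.

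The desmosomal cadherins are the membrane partners of the plaque. Of 9 listed, 6 were on the array under a single symbol and passed the filter. Both RASSF9-/- arrays were under WT for 5 of them, the median log2 fold change was -0.89, and limma called 0 after adjustment and 2 (Dsc1 and Dsg1a) at an unadjusted p under 0.05. For this and the following lists that threshold is to be read against the 5.55% of all genes that passed it, 270 lower and 345 higher. In these lists each gene is shown by its brightest probe set alone. Further probe sets, where present, are not given, and Trp63, for example, had 4 in all. Dsc2, the desmocollin present in most desmosomes, had signals of 2207 and 2013 in RASSF9-/- cells, against 3451 in WT cells. The epidermal Dsc3 had 2183 and 4906 in RASSF9-/- cells, against 6875 in WT cells. That is the array order of Dsp, Jup, Pkp1 and Perp on their brightest probe sets. Dsc1, a cadherin of the differentiated layers, had 39.7 and 89.4 in RASSF9-/- cells, against 1117 in WT cells, with RASSF9-/- array 1 in the background (adjusted p = 0.257 from limma). Dsg1a, another cadherin of those layers, had 138 and 647 in RASSF9-/- cells, against 2688 in WT cells (adjusted p = 0.549 from limma). The 2 RASSF9-/- arrays were far under WT for both, and further so on RASSF9-/- array 1. Dsg1b, by contrast, had 124 and 477 in RASSF9-/- cells, against 334 in WT cells, on either side of WT.

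Plakins are large linkers of the same family as desmoplakin, and corneodesmosin, encoded by Cdsn, joins the desmosomes of the outermost layers. Of the 6 genes, all measured, 5 were under WT on both RASSF9-/- arrays and 0 above it on both. The median log2 fold change was -0.69, with 0 called by limma and 0 at an unadjusted p under 0.05. Cdsn had signals of 1389 and 5906 in RASSF9-/- cells, against 7599 in WT cells. Envoplakin, encoded by Evpl, a cornified envelope plakin, had 487 and 1871 in RASSF9-/- cells, against 2056 in WT cells. Both repeat the array order of Jup and of the brightest Dsp probe set, with RASSF9-/- array 1 far under the other arrays. Ppl, another plakin gene, lay on either side of WT, with 1375 and 5759 in RASSF9-/- cells, against 3474 in WT cells. Dst, which anchors keratin at hemidesmosomes, was at -0.91 and Macf1, a microtubule and actin crosslinker, at -0.48, and the departure of Dst was larger on RASSF9-/- array 2 (-1.37) than on RASSF9-/- array 1 (-0.44).

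Adherens junction partners covered the other catenins, the nectins and actin linkers. Of 17 measured, 10 were lower and 4 higher on both RASSF9-/- arrays, with a median log2 fold change of -0.42, 0 called by limma and 1 (Nectin3) at an unadjusted p under 0.05. The nectins, immunoglobulin-like adhesion proteins of adherens junctions, were lower on both RASSF9-/- arrays except for Nectin2, which was higher on both. Nectin3 had signals of 1626 and 1177 in RASSF9-/- cells, against 2914 in WT cells. Nectin2 had 3880 and 2753 in RASSF9-/- cells, against 1744 in WT cells. Nectin1, at -0.64, and the actin-bundling Lima1, at -0.63, were lower on both arrays.

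The beta-catenin destruction complex, which marks free beta-catenin for degradation, had all 7 genes measured and a median log2 fold change of 0.02. It held 3 genes lower and 1 higher on both RASSF9-/- arrays with 0 called by limma and 0 at an unadjusted p under 0.05. Btrc, which encodes the ubiquitin ligase subunit beta-TrCP, was at -0.50, Axin1, a scaffold of the complex, at 0.19, Axin2, a scaffold and Wnt target, at -0.09 and Fbxw11, a paralog of Btrc, at -0.01. Of 8 other cadherins, 3 were measured and limma called 0 of them, also at an unadjusted p under 0.05. N-cadherin, encoded by Cdh2, had signals of 241 and 520 in RASSF9-/- cells, against 240 in WT cells, so only RASSF9-/- array 2 stood apart. Cdh13, a cadherin without a cytoplasmic tail, was at 0.50 and the mesenchymal Cdh11 at -0.50.

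Transcription factors known to act on cadherin or desmosome genes were listed as a further group. Of 12, 10 were measured, 5 were lower and 2 higher on both RASSF9-/- arrays, with a median log2 fold change of -0.29, 0 called by limma and 1 (Trp63) at an unadjusted p under 0.05. Trp63, which encodes p63, the basal epidermal factor upstream of Perp, had signals of 1460 and 1543 in RASSF9-/- cells, against 3239 in WT cells. Its log2 fold change was -1.11 with a standard error of 0.35, and limma gave an adjusted p = 0.689. The RASSF9-/- arrays were nearly equal for Trp63, whereas they differed by 0.67 for Perp. A link between the Trp63 and Perp values was not tested. Repressors of Cdh1 did not share a direction. Tcf3 was at -0.73, and Snai1 at -0.57 with signals of 122 and 93.6 in RASSF9-/- cells, against 159 in WT cells. Snai2, at -0.54, and Zeb2, at 0.57, were named after their values were seen, and Zeb2 had signals of 179 and 166 in RASSF9-/- cells, against 117 in WT cells. Ovol2, an epithelial factor that restrains mesenchymal genes, was at -0.67.

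**Figure D5:**
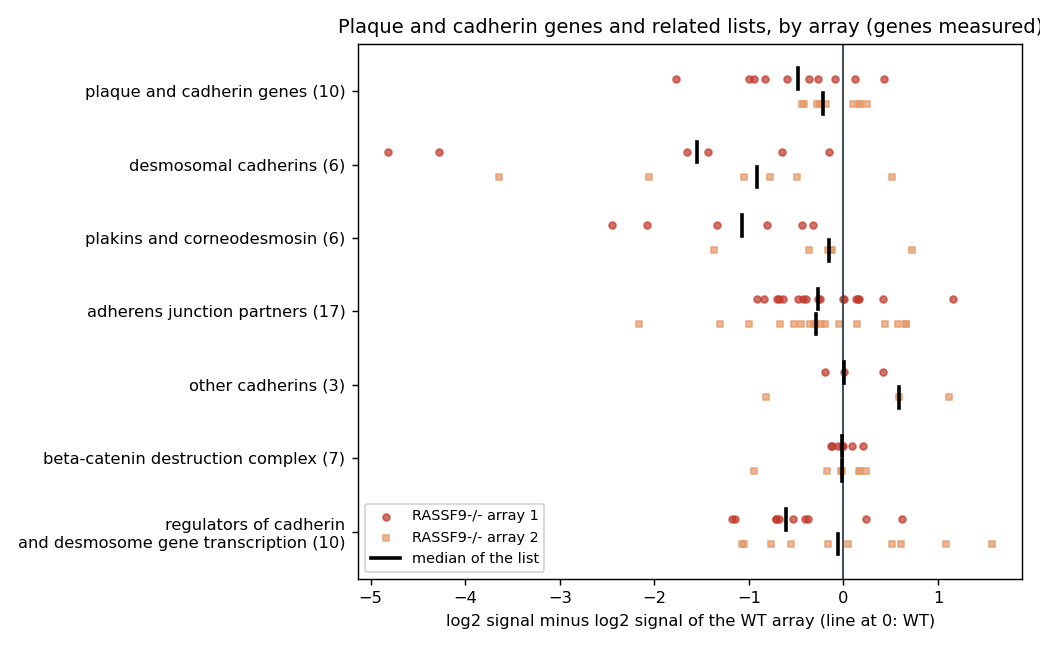
Log2 difference from the WT array of every measured gene of the plaque and cadherin set and of 6 related lists, with RASSF9-/- array 1 above RASSF9-/- array 2 in each row and a black bar at the median. The medians of the desmosomal cadherins (-1.54 and -0.92) and of plakins and corneodesmosin (-1.07 and -0.15) lie left of 0 on both arrays, and those of the destruction complex (-0.01 and -0.02) lie at 0.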

How the data were processed

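RNA of primary keratinocytes from 2 RASSF9-/- samples and 1 WT sample was hybridized to Affymetrix GeneChip Mouse Genome 430 2.0 Arrays. The authors deposited MAS5 signals, an intensity for each of 45101 probe sets on a linear scale, scaled so that the mean was 500 on every array once 2% of probe sets were trimmed from either end. The methods also name GeneSpring, whose output was not analysed here. Controls (64) were left out. Genes were named from the platform annotation, and 34741 of 34945 probe sets with 1 symbol were found by gene ID in the RefSeq table of GRCm38.p6, which altered 0 symbols.

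Log2 signals were compared with limma 3.58.1 in R 4.3.3 (lmFit and eBayes with an intensity trend, two-sided, Benjamini-Hochberg adjustment over all genes, 95% intervals). Probe sets whose mean log2 signal reached the 50th percentile (a signal of 82.7) were kept, and the brightest stood for its gene. The fit had 1 residual and 5.31 prior degrees of freedom. The variance behind each p-value was therefore set mostly by other genes of similar signal, and less by the gene's own gap between the RASSF9-/- arrays. For all of these genes it reflects differences between the RASSF9-/- arrays only, as a single WT array has no spread. Precision is limited by the number of arrays. A second fit covered all 45037 probe sets without a filter. The fit code was checked only on simulated data with a common spread for all genes and changes larger than those of the 10 genes. That check does not bear on fold changes of the sizes found for the 10 genes. Alternatives were other scalings, filters, a pseudocount, a floor at background, the mean of probe sets, no trend, the methods' t-test, other fold thresholds and leaving out each RASSF9-/- array. Named were all 10 genes and, of each related list, at most 4 with the largest log2 fold change in size on the same side of WT on both RASSF9-/- arrays, besides markers of cell types. Dsg1b, Ppl, Snai2 and Zeb2 were added after their values were seen. The genes, lists and background limit were chosen with earlier results of these data known.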

Additional observations from a re-analysis of the deposited data

How the results depend on the processing

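No paired analysis was possible because WT had a single array. With 1 array against 1 the comparison had no test. Leaving out each RASSF9-/- array in turn gave a median log2 fold change over the 10 genes of -0.48 to -0.22. Genes under WT numbered 6 to 8 and genes above WT 2 to 4. Of all genes, 46.1% were under WT on RASSF9-/- array 1 and 53% on RASSF9-/- array 2. At least 2-fold under WT were 0 to 1 (Jup, on RASSF9-/- array 1, whose array name shares its stamp with WT), where 5.19% and 8.91% of all genes were. Of 20 single-gene values with an array left out, 6 had the other direction (Pkp2, Pkp3, Cdh1 and Cdh3 without RASSF9-/- array 1, and Pkp4 and Ctnnb1 without RASSF9-/- array 2). No alternative called any of the 10 genes. Of 50 single-gene values under the 5 settings that change them (3 scalings, the pseudocount and the mean of probe sets), 47 kept their direction. The mean of probe sets, which includes those that failed the filter, turned Pkp4 to -0.23 and moved Ctnnb1 to -0.48 and Dsp to -0.66. With it, 6 of the 10 genes were lower on both RASSF9-/- arrays, as were 33.5% of all genes. Scaling to the 18 spike-in controls, chosen after seeing the data, moved the median of all genes by -0.32, to -0.33, and that of the 10 genes to -0.56. With it, Pkp2 was at -0.23 and Pkp4 at -0.28, and 9 of the 10 genes were lower on both RASSF9-/- arrays, as were 58.7% of all genes. Such a scaling shifts all genes alike, so the median of the 10 relative to all genes, -0.23, could not change with it, and that value was -0.31 with quantile normalization and -0.39 with the mean of probe sets. Calls over all genes numbered 9 higher and 0 lower, against 14 higher and 9 lower with the spike-in scaling, 0 with quantile normalization, without the trend or with the floor, 5 with the pseudocount or the 75th percentile filter and 4 with the methods' t-test after adjustment. The cause of these differences was not tested.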
